A study of Owenia fusiformis with 14 samples.

Results

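A set of 115 genes was examined whose transcripts were less abundant in *O. fusiformis* blastulae after either recombinant BMP4 (rBMP4) or recombinant Activin A (rActivin A) than in mock-treated blastulae. They are 115 of the 27040 genes listed in all deposited libraries. The values were mRNA-seq estimated counts summed over the transcripts of a gene and scaled to the library total (CPM). A gene was taken when its lowest Mock value was at least 5 CPM and at least 1.5 times both its highest rBMP4 and its highest rActivin A value. The genes were thus chosen by their Mock, rBMP4 and rActivin A values, which are described here without a test. Of the 11188 genes with at least 5 CPM in both Mock libraries, 141 met these conditions. The BMP ligand gene *bmp2/4* (OFUSG12159) and the BMP antagonist gene *chordin* (OFUSG13105) were among them and were set aside by the rule. A further 24 were removed because their highest value after SB431542 was at most the lowest 0.4% DMSO value divided by 1.5.

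All 14 libraries came from whole blastulae of the annelid *O. fusiformis* collected at 6 hours post fertilisation (hpf), with 2 replicates in each of 7 groups. The groups treated from 4 to 6 hpf were Mock, zebrafish rBMP4 at 1000, rActivin A at 75, the inhibitor DMH1 at 20 µM, and 0.2% DMSO. SB431542 at 40 µM and 0.4% DMSO were applied from 3 to 6 hpf. The sample titles spell this inhibitor SB435421, and the protein doses are in ng/µl in the labels and in ng/ml in the supplementary tables of the study. Mock was the solvent of the recombinant proteins (dilute HCl with BSA), and DMSO was the solvent of the inhibitors. No label says whether replicates came from separate spawnings, so p-values measure only the spread between these samples, which may be technical.

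BMP ligands bind serine/threonine kinase receptors that phosphorylate SMAD1/5/8, and secreted proteins such as Chordin bind the ligands and keep them from the receptors. Activin and Nodal ligands signal through related receptors and a separate pair of SMAD proteins. In many bilaterian embryos a graded BMP signal patterns the dorsoventral axis. DMH1 blocks BMP receptors and SB431542 blocks Activin/Nodal receptors. Apart from 6 BMP pathway genes, the sources used here pair no *O. fusiformis* gene identifier with a name, and 0 identifiers matched the RefSeq gene table, so the 115 genes are given by identifier and no role is assigned to them.

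Library totals ran from 9416790 estimated counts in rActivin A replicate 2 to 59916462 in DMH1 replicate 1, so 5 CPM stood for 47.1 to 299.6 counts. rActivin A replicate 2 also had the shortest fragments, 314 bases against 349 to 372 bases elsewhere. The 10 most abundant transcripts took 4.80% to 5.82% of each library. Over the 11188 genes with 5 CPM in Mock, the median log2 difference from Mock was 0.03 for rBMP4 and −0.03 for rActivin A, so the scale of the libraries was not shifted between these groups. Correction factors from TMM normalisation ran from 0.964 to 1.04.

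Together the 115 genes made up 1.20% of the counts in each of the Mock libraries. They made up 0.577% and 0.548% in the rBMP4 libraries and 0.365% and 0.412% in the rActivin A libraries. In the DMSO controls they held 0.711% and 0.540% at 0.2% and 0.649% and 0.616% at 0.4%. The summed level was thus highest in Mock, lowest after rActivin A, and in the DMSO controls close to that after rBMP4. In these whole embryos, fewer cells expressing a gene and less RNA per cell cannot be told apart.

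**Figure D1:**
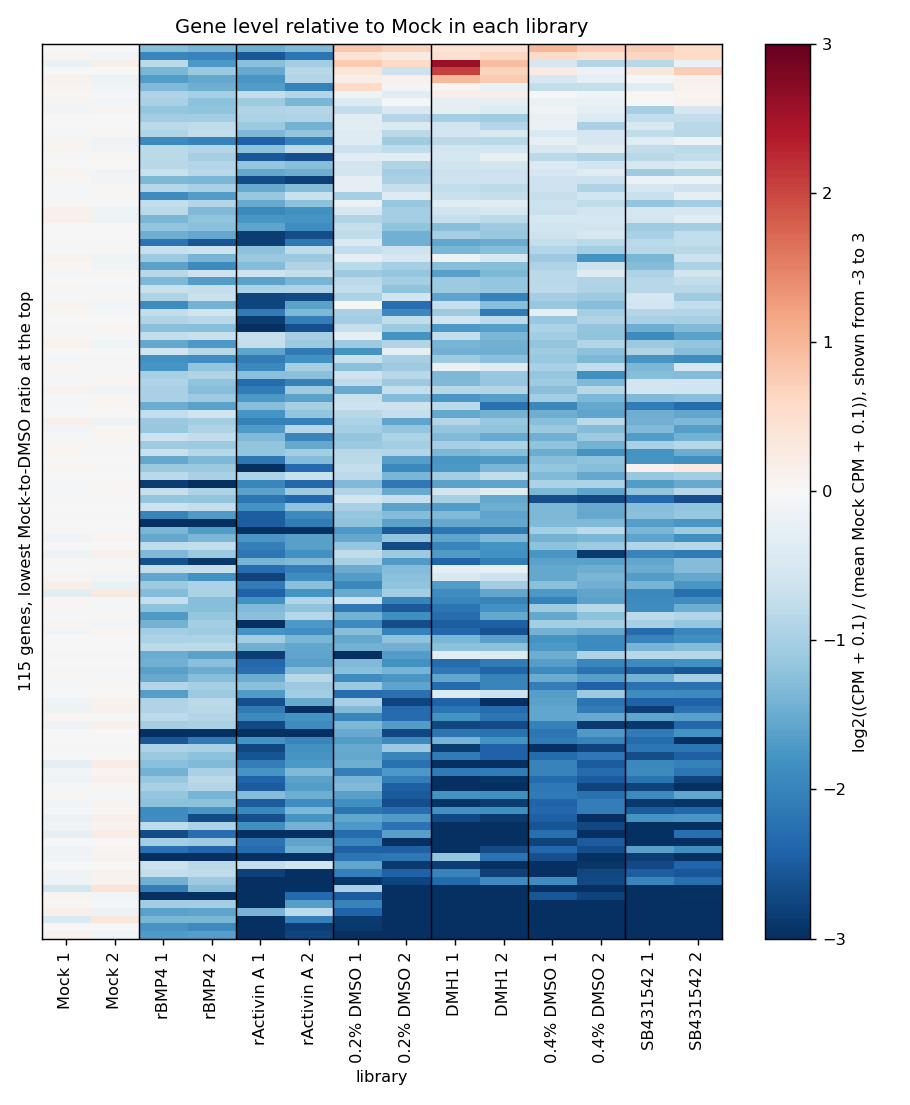
Each row is 1 of the 115 genes and each column 1 of the 14 libraries, coloured by log2 of the CPM relative to the mean of the Mock libraries after adding 0.1 CPM to both, with values beyond −3 or 3 shown at those ends of the scale. The rBMP4 and rActivin A columns are below Mock because the rule chose the genes that way. Rows are ordered by the ratio of the mean Mock to the mean DMSO level, lowest at the top, so the order itself makes the DMSO columns fall from top to bottom. The DMSO and inhibitor columns, which the rule did not use to set this direction, are above Mock in a few top rows and far below it at the bottom.

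The size of the difference from Mock varied widely within the set. Mean Mock levels were 1.59 to 24.7 times the mean rBMP4 levels, with a median of 2.28 and a middle range of 1.85 to 2.92 between quartiles. Against rActivin A the ratios ran from 1.58 to 58.1, with a median of 3.31 and quartiles of 2.42 and 4.67. On the log2 scale the medians were −1.19 after rBMP4 and −1.73 after rActivin A. The margin, which is the lowest Mock value over the highest ligand value, had quartiles of 1.62 and 2.40 around a median of 1.86, so many of the genes lie close to the required 1.5. Replicates of Mock and of rBMP4 differed by a median ratio of 1.08 and 1.10 over the 115 genes, and those of rActivin A by 1.32, against 1.08, 1.08 and 1.14 over the 11188 genes. The rActivin A level was higher in replicate 2 than in replicate 1 for 88 of the 115 genes, and for 53.6% of the 11188. The part of depth and fragment length in this was not tested.

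The largest margin belonged to OFUSG11740. It had 150 CPM in each Mock library, 10.2 CPM in each rBMP4 library, and 2.71 and 12.6 CPM after rActivin A. This is 14.7 times less after rBMP4 and 19.5 times less after rActivin A, and the 2 rActivin A libraries differed by 4.66 times (46 and 119 counts). The next margin, of 9.62, was that of OFUSG11338, a gene near the lower limit with 6.81 and 7.99 CPM in Mock. It had 0.628 and 0.664 CPM after rBMP4 and 0.708 and 0.106 CPM after rActivin A, of which the last is a single count. OFUSG01771 had the largest ratio to rBMP4, 24.7, with 54.7 and 49.2 CPM in Mock against 1.94 and 2.26 CPM. After rActivin A its values were 4.19 and 10.3 CPM. For these 3 genes the ligand libraries lie far below Mock in every replicate, and the spread is in the rActivin A pair.

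OFUSG26371 was nearly equal after the 2 ligands, with 41.9 and 40.3 CPM in Mock, 8.74 and 6.86 CPM after rBMP4 and 5.72 and 9.24 CPM after rActivin A. OFUSG17444 completed the 5 largest margins with 5.97 and 8.25 CPM in Mock, 1.03 and 1.37 CPM after rBMP4, and 0.177 and 0.212 CPM after rActivin A. Those last values are 3 and 2 counts, so its ratio of 36.5 to rActivin A is imprecise.

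The 5 genes with the highest Mock counts showed smaller ratios with tighter replicates. OFUSG11532 had 1827 and 1636 CPM in Mock, 1089 and 973 CPM after rBMP4 and 598 and 628 CPM after rActivin A. OFUSG17445 had 1026 and 1121 CPM in Mock, 450 and 445 CPM after rBMP4, and 127 and 174 CPM after rActivin A. Its ratio of 2.40 to rBMP4 and 7.13 to rActivin A made it the gene of these 5 with the most unequal ligands. OFUSG23486 (808 ± 6.12 CPM in Mock, SD, n = 2), OFUSG03494 (508 ± 23.0 CPM) and OFUSG13069 (486 ± 14.9 CPM) were 1.82, 1.91 and 2.05 times lower after rBMP4 and 2.32, 2.26 and 3.16 times lower after rActivin A. In each of these 5 genes, the gap between Mock and the ligand libraries was larger than the difference between the Mock replicates. The rule does not require this, and OFUSG15614, with 6.43 and 12.8 CPM in Mock and up to 3.81 CPM after rBMP4, was taken with a gap smaller than that difference.

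Per transcript length, the set spanned a wide range of levels. Mock levels ran from 0.311 TPM to 2831 TPM (OFUSG23486), where those of the 11188 genes ran from 0.238 to 52083.5 TPM. The median was 26.5 TPM against 23.5 TPM over the 11188 genes. Main transcripts had a median length of 2087 bases against 2071.5 bases. More than 1 transcript was annotated for 21 of the 115 genes (18.3%), against 18.9% of the 11188. In length and number of transcripts the set therefore resembled other genes of that level.

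Relative to each other the ligands were unequal for many of the genes. The mean rActivin A level was below the mean rBMP4 level for 87 of the 115, and the median ratio of rActivin A to rBMP4 was 0.722, against 0.962 over the 11188 genes. Both rActivin A libraries lay below both rBMP4 libraries for 67 genes (58.3%), where 41.7% of the 11188 genes did so. The opposite order held for 13 genes (11.3%), where it held for 32.7% of the 11188. These libraries chose the genes, so the shares describe the set and were not tested.

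The lowest ratios of rActivin A to rBMP4 were found for genes with mean Mock levels of under 10 CPM. OFUSG15614 had 6.43 and 12.8 CPM in Mock and 2.23 and 3.81 CPM after rBMP4, but only 0.118 and 0.212 CPM after rActivin A, 2 counts in each library. OFUSG06228 had 6.01 and 7.08 CPM in Mock, 2.34 and 3.01 CPM after rBMP4 and 0.413 and 0.319 CPM after rActivin A (7 and 3 counts). OFUSG17444, described above, was the other. At such counts the sizes of the ratios are imprecise, although the 2 ligands did not overlap in any of the 3 genes.

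The highest ratios belonged to well-expressed genes. OFUSG01771 had 3.45 times more after rActivin A than after rBMP4. OFUSG10344 had 209 and 197 CPM in Mock, 32.3 and 27.0 CPM after rBMP4 and 76.8 and 80.6 CPM after rActivin A. OFUSG09693 had 165 and 160 CPM in Mock, 16.3 and 13.6 CPM after rBMP4 and 29.2 and 37.8 CPM after rActivin A. These genes were much lower after both ligands, and lower after rBMP4 than after rActivin A by 2.66 and 2.24 times for the last 2, with no overlap between replicates.

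**Figure D2:**
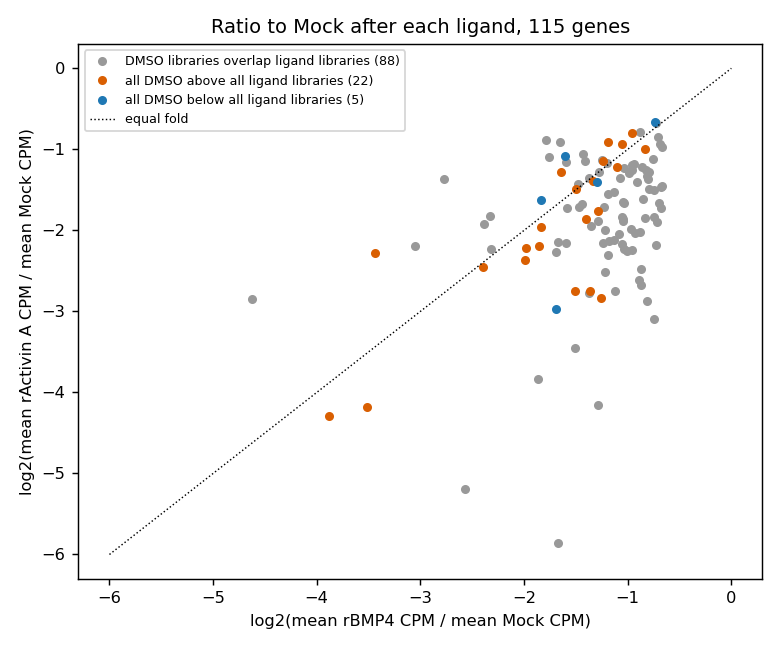
Each point is 1 of the 115 genes, with log2 of the mean rBMP4 over the mean Mock CPM on the x axis and the same for rActivin A on the y axis, coloured by how its 4 DMSO libraries compare with its 4 ligand libraries. Most points lie below the dotted line of equal fold, with medians of −1.19 on x and −1.73 on y, and OFUSG01771, OFUSG10344 and OFUSG09693 stand above it.

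Agreement between rActivin A replicates was poorest for OFUSG25120 and OFUSG11338. OFUSG25120 had 14.9 and 14.7 CPM in Mock and 4.28 and 3.85 CPM after rBMP4, but 0.0590 and 2.02 CPM after rActivin A (1 and 19 counts). In the smaller rActivin A library it was therefore the higher of the pair, and for OFUSG11338 the lower. Without rActivin A replicate 2 the rule gave 137 genes, and without replicate 1 it gave 119.

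The DMSO controls were a second set of embryos without added ligand, and the rule did not use the 0.2% DMSO libraries at all. In 106 of the 115 genes (92.2%) both Mock libraries lay above all 4 DMSO libraries, where 29.4% of the 11188 genes did so. In 76 genes they were at least 1.5 times higher than every DMSO library (7.86% of the 11188). Mean Mock levels were a median 2.50 times the mean DMSO levels in the set, with quartiles of 1.79 and 3.48, and 1.00 times over the 11188 genes. Since the rule chose high Mock values, a shift in this direction follows in part from the choice, and it was not tested. Solvent and embryo batch cannot be told apart between Mock and DMSO embryos.

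The DMSO controls also differed from each other, in dose and in the start of treatment. Both 0.4% DMSO libraries lay above both 0.2% DMSO libraries for 19 of the 115 genes (16.5%, where 23.8% of the 11188 did so) and below both for 34 (29.6%, where 40.5% did so). Mock lay above both 0.2% DMSO libraries for 107 genes (93.0%, where 35.2% of the 11188 did so) and above both 0.4% DMSO libraries for 111 (96.5%, where 45.8% did so).

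Compared with the ligand libraries, the DMSO libraries overlapped them for 88 of the 115 genes. For 22 genes (19.1%) all 4 DMSO libraries lay above all 4 ligand libraries, where 8.99% of the 11188 genes did so. For 5 genes (4.35%) all 4 lay below, where 9.34% did so. The label of the set, lower after both ligands, thus held without overlap against both kinds of control for 22 genes. For the other genes this full separation held against Mock only. Overlap here means that any DMSO library reached any ligand library, so the order could still hold for a single DMSO dose or ligand. In OFUSG11532, for example, both 0.4% DMSO libraries (1231 and 1336 CPM) lay above every ligand library (at most 1089 CPM). Since the rule chose low ligand values, DMSO values above them follow in part from the choice, and these shares were not tested. Requiring the lowest DMSO value to be at least 1.5 times the highest ligand value, a condition added after the values were seen, left 6 genes (0.349% of the 11188 met it), so that the number of genes moved from 115 to 6 when DMSO was added as a control. Median Mock levels per transcript length were 59.8 TPM in the 22 genes, 25.7 TPM in the 88 and 11.7 TPM in the 5. The median ratio of Mock to DMSO was 1.495 in the 22, 2.64 in the 88 and 5.83 in the 5, an order that the grouping itself favours.

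**Figure D3:**
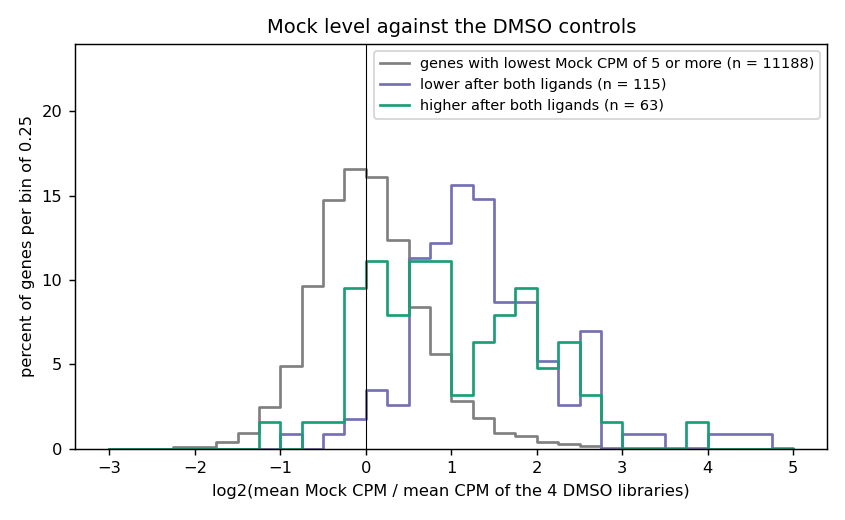
The x axis is log2 of the mean Mock CPM over the mean of the 4 DMSO libraries and the y axis the percent of genes in each bin of 0.25. Grey, the 11188 genes with at least 5 CPM in both Mock libraries, is centred at a ratio of 1.00, the 115 genes lower after both ligands have a median ratio of 2.50, and 63 genes of the mirrored rule, higher after both ligands, have a median ratio of 1.90.

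A mirrored rule was applied for comparison, which asked for at least 5 CPM in every ligand library and at least 1.5 times the highest Mock value. It found 63 genes, which share the Mock, rBMP4 and rActivin A libraries with the 115. All 4 DMSO libraries lay on the Mock side of the ligand libraries, that is below all of them, for 61 of the 63, where 9.34% of the 11188 genes had this order. Mock lay above every DMSO library for 45 of the 63, where 29.4% of the 11188 did so. These shares describe the mirrored genes, which were likewise chosen by the ligand and Mock values, and were not tested. The mirrored rule set no minimum for Mock, so the 63 genes need not be among the 11188. The shares of the 11188 thus belong to a differently filtered set.

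The 6 genes separated by 1.5 times from both kinds of control were OFUSG25241, OFUSG22325, OFUSG11740, OFUSG26371, OFUSG21342 and OFUSG08558. They were chosen after their values were seen. OFUSG25241 had 88.5 and 79.0 CPM in Mock and 101 to 124 CPM in the 4 DMSO libraries, against 21.5 and 20.7 CPM after rBMP4 and 14.3 and 18.3 CPM after rActivin A. OFUSG22325 was lower in Mock, at 30.3 and 30.2 CPM, than in DMSO, at 48.5 to 60.4 CPM, and reached 12.4 and 11.5 CPM after rBMP4 and 10.9 and 12.1 CPM after rActivin A. OFUSG21342 had 173 and 152 CPM in Mock, 77.2 to 136 CPM in DMSO, 42.9 and 39.5 CPM after rBMP4 and 30.0 and 39.9 CPM after rActivin A.

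For OFUSG11740 and OFUSG26371, as for OFUSG21342, the DMSO controls lay between Mock and the ligands. OFUSG11740 had 22.7 to 52.7 CPM in DMSO, against 150 CPM in Mock and at most 12.6 CPM after a ligand. OFUSG08558 had 18.7 and 16.6 CPM in Mock, 10.6 to 26.8 CPM in DMSO and 4.25 to 7.02 CPM after the ligands. Its ratio of Mock to DMSO was 1.09, and OFUSG25241 and OFUSG22325, at 0.742 and 0.570, were lower in Mock than in every DMSO library.

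At the other end stood the 5 genes whose DMSO values were all below the ligand values, OFUSG11126, OFUSG18467, OFUSG13483, OFUSG21198 and OFUSG09083, which were also named after their values were seen. OFUSG11126 had 59.2 and 49.5 CPM in Mock, 16.6 and 17.1 CPM after rBMP4 and 5.90 and 7.96 CPM after rActivin A, but only 1.10 to 3.78 CPM in DMSO. OFUSG18467 had 39.4 and 31.2 CPM in Mock, 11.5 and 11.8 CPM after rBMP4, 13.3 and 20.2 CPM after rActivin A and 1.59 to 6.63 CPM in DMSO. In both genes Mock was high, the ligands intermediate and DMSO lowest, with mean Mock levels 25.4 and 10.4 times the DMSO levels.

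**Figure D4:**
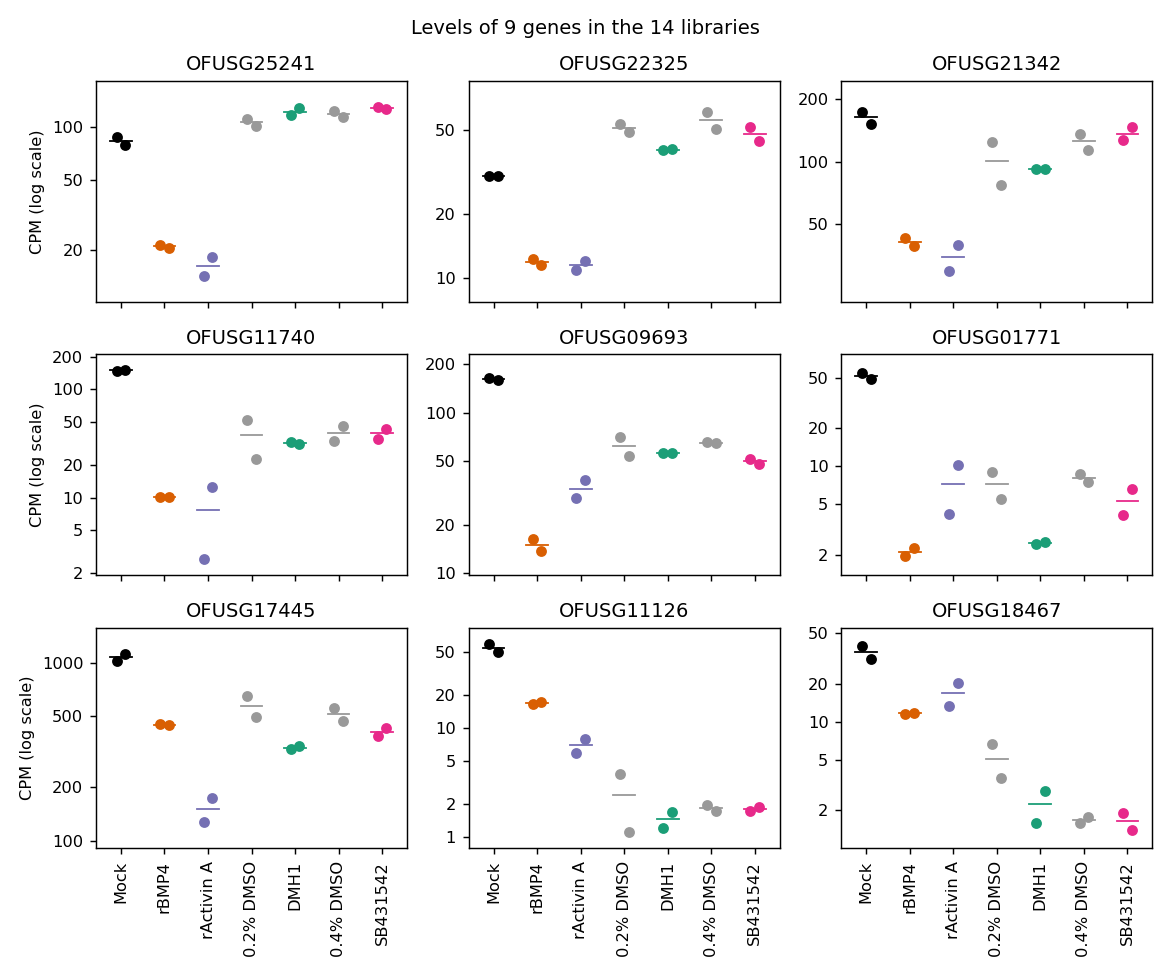
CPM of 9 of the 115 genes on a log scale, with 1 point per library and a line at the mean of the 2 replicates of a group. OFUSG25241 and OFUSG22325 are lowest after rBMP4 and rActivin A, whereas OFUSG11126 and OFUSG18467 are high in Mock, at 31.2 CPM or more, and have their lowest values in the DMSO and inhibitor groups.

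DMH1 blocks the receptors that rBMP4 activates, and the rule used neither DMH1 nor 0.2% DMSO. In edgeR's quasi-likelihood test, adjusted by Benjamini-Hochberg over the 20695 genes tested, 6 of the 115 genes were higher and 10 lower after DMH1 at an adjusted p below 0.05, and all 115 passed the filter on low counts. These are 5.22% and 8.70% of the set, where 5.97% and 6.91% of all genes tested were called, and 6.91% and 11.7% of those with at least 5 CPM in Mock. In this fit the shares were close to the background in both directions, but under other settings the share called lower was above that of all genes tested. It was 17.4% against 10.6% of all genes with DESeq2 and 17.4% against 6.80% without the filter on low counts. In a fit of all 14 libraries it was 24.3% against 14.4%. That fit takes part of its spread from the libraries that chose the genes, so nothing is read from its share. For these settings the share among genes with 5 CPM in Mock, which was the higher background in the main fit, was not computed. The median log2 fold change was −0.20, against 0.00 over all genes tested and −0.07 over those with 5 CPM in Mock. Leaving out 0.2% DMSO replicate 1 gave a median of 0.00, and leaving out replicate 2 of that control gave −0.39, so the median depended on which control library was used. Both DMH1 libraries lay above both 0.2% DMSO libraries for 18 genes (15.7%, where 27.0% of the 11188 did so) and below both for 48 genes (41.7%, the same as the 41.7% of the 11188).

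The 4 genes with the strongest evidence of a rise after DMH1 were OFUSG13983, OFUSG09116, OFUSG15355 and OFUSG08557. OFUSG13983 had 17.6 and 20.3 CPM in 0.2% DMSO and 40.5 and 42.8 CPM after DMH1 (log2 fold change 1.17, SE 0.144, adjusted p = 0.0104 from edgeR). OFUSG09116 rose from 2.34 and 2.38 CPM to 8.82 and 7.42 CPM (log2 fold change 1.82, SE 0.273, adjusted p = 0.0140 from edgeR). In both genes the DMH1 libraries lay above every DMSO and ligand library and below Mock, which had 48.7 and 51.2 CPM for OFUSG13983 and 11.8 and 11.6 CPM for OFUSG09116. OFUSG15355 rose by a log2 fold change of 0.94 and OFUSG08557 by 0.77, with adjusted p of 0.0220 and 0.0439 from edgeR.

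Of the genes that fell after DMH1, OFUSG05150, OFUSG20512, OFUSG17445 and OFUSG15466 had the smallest p-values. OFUSG20512 had 45.1 and 26.0 CPM in 0.2% DMSO and 10.4 and 11.8 CPM after DMH1 (log2 fold change −1.64, SE 0.266, adjusted p = 0.0165 from edgeR). OFUSG05150 fell from 30.0 and 23.8 CPM to 11.4 and 11.9 CPM (log2 fold change −1.17, adjusted p = 0.0141 from edgeR). The well-expressed OFUSG17445 fell by 0.75 on the log2 scale, from 650 and 496 CPM to 327 and 340 CPM. In each of these genes the DMH1 libraries lay below both 0.2% DMSO libraries.

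The counts of calls after DMH1 changed with the 0.2% DMSO library used. Without 0.2% DMSO replicate 2, 10 of the genes were called higher (8.70%, against 15.2% of all genes) and 55 lower (47.8%, against 15.9%). Without 0.2% DMSO replicate 1, 27 were called higher (23.5%, against 16.6%) and 22 lower (19.1%, against 16.9%). The 0.2% DMSO replicates held 0.711% and 0.540% of their counts in the set and differed by a median ratio of 1.35 per gene. A fit without 1 of them takes its spread from the DMH1 pair alone, and in it calls rose over all genes. A fit without 1 DMH1 library has 1 residual degree of freedom and takes its spread from the 0.2% DMSO pair alone. In it calls were lost in the set and over all genes. Without DMH1 replicate 1 the median log2 fold change of the set was −0.20, against −0.02 over all genes. Without DMH1 replicate 2 it was also −0.20, against −0.02. DESeq2 on all 4 libraries called 7 higher and 20 lower (6.09% and 17.4%, against 8.20% and 10.6% of all genes). Of the 8 genes named here, 7 missed an adjusted p of 0.05 only in the fits with a single DMH1 library, and OFUSG08557 missed it there and with a replicate block. Their fold changes were of similar size in those fits, with log2 values of 1.23 and 1.13 for OFUSG13983 and −1.54 and −1.74 for OFUSG20512.

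SB431542 blocks receptors that respond to Activin. Because the rule removed genes much lower after SB431542, the lower direction is limited by it and read only as a description. In the joint fit of 10 libraries, 4 of the 115 genes were higher and 7 lower after SB431542 than in 0.4% DMSO at an adjusted p below 0.05 (edgeR, 20463 genes tested). Those are 3.48% and 6.09% of the set, where 0.518% and 0.845% of all genes tested were called, and 0.670% and 1.45% of those with 5 CPM in Mock. Of the 5 residual degrees of freedom of this fit, 3 come from the Mock, rBMP4 and rActivin A libraries, whose values chose the genes, so nothing is read from these shares. The median log2 fold change was −0.02, against 0.01 over all genes tested. Both SB431542 libraries lay above both 0.4% DMSO libraries for 32 genes (27.8%, where 19.4% of the 11188 did so) and below both for 35 (30.4%, where 20.6% did so). The 24 genes removed by the rule were all lower after SB431542, and the background genes were not filtered this way. The rule thus raises the median and the share above and lowers the share below, so these values describe the set only.

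OFUSG22723 rose most clearly, from 9.46 and 8.70 CPM in 0.4% DMSO to 23.3 and 26.0 CPM after SB431542 (log2 fold change 1.43, SE 0.189, adjusted p = 0.000243 from edgeR). The SB431542 level was that of Mock, at 22.1 and 20.2 CPM, while rBMP4 had 9.65 and 9.78 CPM and rActivin A 2.12 and 4.14 CPM. OFUSG17729, OFUSG16034 and OFUSG01750 rose by smaller amounts, with log2 fold changes of 0.59, 0.48 and 0.47 and adjusted p of 0.0331, 0.0229 and 0.0161 from edgeR. The call of OFUSG22723 was kept under all 9 alternatives tried for it, with adjusted p of up to 0.0329 (edgeR or DESeq2), and it was the only 1 of the 8 genes named for SB431542 of which this holds. All 9 also took part of their spread from the Mock, rBMP4 and rActivin A libraries that chose the gene, so they are not independent of the choice.

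Among the genes lower after SB431542, OFUSG11532 had 1231 and 1336 CPM in 0.4% DMSO and 809 and 923 CPM after SB431542 (log2 fold change −0.57, SE 0.0913, adjusted p = 0.00175 from edgeR). OFUSG26437, OFUSG02151 and OFUSG15466 had log2 fold changes of −0.58, −0.66 and −0.81. OFUSG15466 was the only gene of the set called after both inhibitors, and lower in both cases, by −1.13 after DMH1. With single libraries of SB431542 or 0.4% DMSO left out, fewer genes of the set were called in each direction, and the share called over all genes fell as well.

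**Figure D5:**
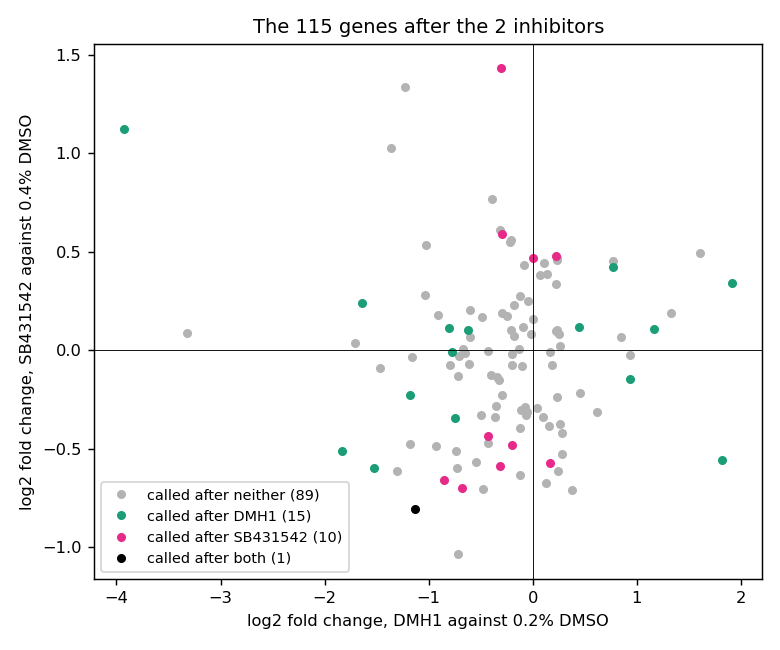
Each point is 1 of the 115 genes, with its log2 fold change after DMH1 on the x axis and after SB431542 on the y axis, coloured by whether edgeR called it at an adjusted p below 0.05. Of the 115 genes, 89 were called after neither inhibitor, 15 after DMH1 only, 10 after SB431542 only and 1, OFUSG15466, after both. The shares of all genes in these classes were not computed, so the counts describe the set only.

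The effects of the inhibitors were compared with each other in a fit of all 14 libraries. The SB431542 effect exceeded the DMH1 effect for 9 of the 115 genes (7.83%) and was below it for 4 (3.48%) at an adjusted p below 0.05 (edgeR). Of all 21574 genes tested 4.65% and 4.21% were called, and of those with 5 CPM in Mock 7.74% and 5.96%. Without 0.2% DMSO replicate 2 the share above 0 was 24.3% (against 5.66% of all genes), and without 0.2% DMSO replicate 1 the share below 0 was 13.0% (against 6.51%). This fit also takes part of its spread from the libraries that chose the genes. OFUSG22723, which rose after SB431542 and had 12.9 and 5.41 CPM in 0.2% DMSO and 6.38 and 8.14 CPM in DMH1, was among the 9. OFUSG13983 and OFUSG09116, which rose after DMH1, were among the 4.

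Of the 6 BMP pathway genes that the study pairs with identifiers, 1 was called after DMH1 and 0 after SB431542. Over all genes tested, 5.97% were called higher and 6.91% lower after DMH1, and 0.518% and 0.845% after SB431542. The call was the receptor gene *bmpr2* (OFUSG26337, log2 fold change −0.53, adjusted p = 0.0341 from edgeR), and it was not tried under other settings. The ligand genes *bmp2/4* and *bmp5-8*, the antagonist *chordin*, the receptor *bmpr1* and the signal transducer *smad1/5/8* did not pass after either inhibitor. None of these is among the 115 genes.

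Reads of a gene with several transcripts are divided between them by the counting, and in 14 of the 21 genes of this kind at least 2 transcripts had a mean of 1 CPM or more in Mock. The ratio of ligand to Mock differed most between the transcripts of OFUSG16866, OFUSG17865 and OFUSG18066. In OFUSG16866, OFUSG16866.2 held 59.1% of the Mock level, with 19.4 and 20.2 CPM in Mock, 10.8 and 14.1 CPM after rBMP4 and 0 CPM in both rActivin A libraries. OFUSG16866.1 had 5.08 CPM in Mock replicate 1 and almost none in replicate 2, and 0.0978 and 18.5 CPM after rActivin A. The sum over the gene moved much less between replicates, at 10.2 and 18.5 CPM after rActivin A, so its transcripts are uncertain and the gene level is the firmer value.

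In OFUSG17865 both transcripts, of equal length, were lower after the ligands, at 0.312 and 0.109 of their Mock levels, and in OFUSG18066 at 0.324 and 0.119. OFUSG20914, noticed after its values were seen, lists transcript pairs of equal length with equal values in every library, so that 18.4 CPM in Mock is given for both OFUSG20914.2 and OFUSG20914.4. Such equal values are what the counting gives for transcripts that reads cannot tell apart. Applied to single transcripts, the rule found 120 genes.

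Some of the genes have consecutive identifier numbers, which occurred for 6 pairs. In OFUSG01613 and OFUSG01614, mean Mock levels were 1.62 and 1.94 times those after rBMP4 and 1.91 and 2.39 times those after rActivin A. In OFUSG07469 and OFUSG07470 the ratios were 2.11 and 1.69 for rBMP4 and 2.55 and 2.16 for rActivin A. In OFUSG08557 and OFUSG08558 they were 3.12 and 2.64 for rBMP4 and 2.43 and 3.63 for rActivin A. These identifiers could not be placed on a genome here, so it is not known whether the pairs are neighbours, related copies or parts of a single gene, and reads shared between such copies would make their values uncertain.

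Genes just inside and just outside the limits differed little. OFUSG25338, with a margin of 1.502, and OFUSG11532, also with 1.502, were the nearest inside, and OFUSG00459 and OFUSG21484 missed it with 1.498 and 1.497. On the SB431542 condition, the highest SB431542 value was 0.668 of the lowest 0.4% DMSO value for OFUSG22615 and 0.701 for OFUSG15466, which stayed in. It was 0.656 for OFUSG26830 and 0.652 for OFUSG25586, which were removed. On the Mock minimum, for which genes were named after their values were seen, OFUSG19094 and OFUSG01783 entered with lowest values of 5.01 and 5.02 CPM, and OFUSG08556 and OFUSG03469 missed it with 4.95 and 4.78 CPM.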

How the data were processed

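The authors filtered reads with FastP, quantified *O. fusiformis* transcripts with kallisto (version 0.46.2 per the labels) and deposited 1 table per library with estimated counts, TPM and transcript length. The estimated counts are not normalized, the TPM values deposited are scaled for length and depth, and the strand setting and genome build are not given in the sources used here. Estimated counts were summed per gene (identifier before the dot) and divided by the library total for CPM. TPM served only to compare levels between genes. For tests, estimated counts of the 31977 transcripts listed in all files were summed per gene and rounded. Genes with low counts were removed by filterByExpr. Quasi-likelihood tests in edgeR (version 4.0.16, R version 4.3.3) used TMM factors, and p-values were adjusted by Benjamini-Hochberg over all genes tested. DMH1 and 0.2% DMSO (4 libraries) had a fit of their own, with 2 residual degrees of freedom. The other 10 libraries were fitted together as 5 groups, with 5. The difference between the inhibitors was tested on all 14. With 2 replicates per group, an exact permutation test of a single value cannot go below p = 0.333. DESeq2 (version 1.42.0) was an alternative. The script was tested on simulated data.

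Named genes are the 5 with the highest Mock CPM, the 5 with the largest margin, the 3 highest and 3 lowest ratios of rActivin A to rBMP4, and at most 4 genes called in each direction after each inhibitor. Others are those nearest the margin and the SB431542 limit, the 3 with the most unequal transcripts at 1 CPM or more, the 2 with the most unequal rActivin A replicates, and 3 consecutive pairs. Genes named beyond these are marked as chosen after their values were seen, or were called for the difference between inhibitors. The genes, lists and tests were chosen with earlier results of these data known.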

Additional observations from a re-analysis of the deposited data

Results flagged for a closer look

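For 13 of the 115 genes the effect of SB431542 and that of DMH1 differed in a test of the difference itself (edgeR on all 14 libraries, adjusted p below 0.05). The difference, SB431542 effect minus DMH1 effect on the log2 scale, was above 0 for 9 genes (7.83% of the set, where 4.65% of all genes tested were called above 0) and below 0 for 4 (3.48%, where 4.21% were). It was 5.02 for OFUSG15614, 2.57 for OFUSG19094, 2.38 for OFUSG16858, 1.88 for OFUSG20512, 1.72 for OFUSG22723, 1.08 for OFUSG10344, 0.88 for OFUSG17729, 0.76 for OFUSG03494 and 0.72 for OFUSG25576. It was −2.38 for OFUSG09116, −1.09 for OFUSG15355, −1.06 for OFUSG13983 and −0.75 for OFUSG11532. The inhibitors also differed in the start of treatment and in their DMSO controls, whose part in these differences was not tested. The SB431542 condition of the rule limits how far below 0 a difference could fall.

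The differences of OFUSG09116, OFUSG13983, OFUSG16858 and OFUSG20512 passed the adjusted p of 0.05 under all 12 alternatives tried. All 12 took part of their spread from the Mock, rBMP4 and rActivin A libraries that chose the genes. The adjusted p of OFUSG09116 ranged from 7.05e-06 to 0.0198 (edgeR and DESeq2), and that of OFUSG20512 from 7.04e-07 to 0.0164. OFUSG15614 had low counts, with 93 and 14 in 0.2% DMSO and 10 and 9 after DMH1, and its difference lay between 2.90 and 5.86. The counts above and below 0 changed with single libraries left out. The count above 0 rose most without 0.2% DMSO replicate 2, and that below 0 without 0.2% DMSO replicate 1. The count above 0 fell without either DMH1 library, without 0.4% DMSO replicate 2 and without either SB431542 library. The share above 0 over all genes fell in each of these cases as well. The count below 0 fell most without 0.4% DMSO replicate 2 and without SB431542 replicate 1, where the share over all genes also fell.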

How the results depend on the processing

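The number of genes meeting the rule was 256 with the margin lowered by 0.25, 43 with a margin of 2, 223 with a Mock minimum of 1 CPM, and 6 with a DMSO condition chosen after seeing the data. It was 127 with TMM-adjusted CPM, which kept all 115, and 119 to 167 with single Mock, rBMP4 or rActivin A libraries left out. After DMH1, calls lower numbered 20 with DESeq2 (17.4%, against 10.6% of all genes) and 20 without a filter on low counts (17.4%, against 6.80%). Calls higher and lower numbered 3 and 6 at a log2 fold change of at least 1 (2.61% and 5.22%, against 2.82% and 2.01%). A fit of all 14 libraries takes part of its spread from the libraries that chose the genes. In it calls higher and lower numbered 10 and 28 (8.70% and 24.3%, against 10.6% and 14.4%). With single libraries left out they ran from 0 to 27 higher and from 0 to 55 lower. After SB431542, calls higher numbered 2 at a log2 fold change of at least 0.5 (1.74%, against 0.469% of all genes) and 1 at 1 (0.870%, against 0.215%). Calls lower numbered 0 at a log2 fold change of at least 1 (against 0.410% of all genes). At an unadjusted p below 0.05 in edgeR without a fold minimum 23 were lower, where 883 of all 20463 genes tested were. DESeq2 called 9 lower (7.83%, against 1.22% of all genes). There were 1 higher and 2 lower in the fit of all 14 libraries (0.870% and 1.74%, against 0.199% and 0.459% of all genes). Without a filter 12 were lower (10.4%, against 1.03%). With single libraries left out, fewer were called in each direction, and the share over all genes fell as well. Over all genes, calls higher and lower after DMH1 numbered 1235 and 1429, against 10 and 1 without DMH1 replicate 1, 12 and 2 without DMH1 replicate 2, 3764 and 3835 without 0.2% DMSO replicate 1, 3443 and 3594 without 0.2% DMSO replicate 2, and 2282 and 3105 in the fit of all 14. Those after SB431542 numbered 106 and 173, against 43 and 99 in the fit of all 14. Differences between the inhibitors numbered 2 to 28 above 0 and 2 to 15 below 0 with single libraries left out. No single gene named for a call changed its direction. With the replicate number as a block, 5 were higher and 7 lower after DMH1 (4.35% and 6.09%, against 3.77% and 4.37% of all genes). After SB431542 they were 4 and 7 (3.48% and 6.09%, against 0.464% and 0.792%). For the difference they were 9 and 4 (7.83% and 3.48%, against 4.11% and 3.84%). The replicate numbers carry no stated pairing. Replicate differences correlated across genes at −0.03 between 0.2% DMSO and DMH1 and 0.21 between 0.4% DMSO and SB431542. Without any library left out, size factors of DESeq2 in place of TMM gave 5 higher and 10 lower after DMH1 (4.35% and 8.70%, against 5.87% and 7.16% of all genes). With 47.1 counts at 5 CPM in the smallest library, ratios of the genes near the Mock minimum are limited by counting.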
